A study of Mus musculus with 96 samples.

Results

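Fatty acids are burned, and ketone bodies taken up from blood are used, by a set of enzymes encoded by 34 genes that were followed here along the mouse nephron. They were picked by gene symbol from a table of 54532 genes, and all 34 were found and all 34 passed the filter on low values. By role they are 7 activating enzymes, 5 genes of the carnitine shuttle, 11 enzymes of mitochondrial chain shortening, 8 peroxisomal genes and 3 enzymes of ketone body use. The values are transcript abundances as TPM, a unit that is scaled to the same total in each sample and corrects for transcript length, and therefore allows levels of different genes to be compared.

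A fatty acid is first joined to coenzyme A by an acyl-CoA synthetase, of which the ACSL family takes long chains and the ACSM family medium chains. Long chains then cross the mitochondrial membranes as carnitine esters, made by carnitine palmitoyltransferase 1 and undone by carnitine palmitoyltransferase 2, and are shortened inside by a repeating set of a dehydrogenase, a hydratase, a second dehydrogenase and a thiolase. Peroxisomes run a parallel set of reactions that starts with an oxidase and makes hydrogen peroxide, which catalase removes. Kidney epithelium that transports much sodium is known to draw heavily on fatty acids and also oxidises ketone bodies.

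The samples were glomeruli and pieces of 14 tubule segments dissected by hand from kidneys of male C57BL/6 mice aged 6 to 8 weeks, on normal chow and with no treatment, sequenced from very small inputs. The groups were glomeruli, the 3 successive parts of the proximal tubule (PTS1, PTS2, PTS3), the descending thin limbs (DTL1, DTL2, DTL3) and the thin ascending limb (ATL) of the loop of Henle, the thick ascending limb of medulla (MTAL) and cortex (CTAL), and then DCT and CNT, the distal convoluted and connecting tubules, and CCD, OMCD and IMCD, which are the collecting ducts taken from cortex, outer medulla and inner medulla. The 93 samples came from 53 mice by the series' design text, here counted by mouse number within each segment, 5 each for PTS2, CTAL and CCD, 4 each for ATL and OMCD and 3 for each other group, and pieces from 1 mouse were averaged so that the mouse was the replicate. In such pieces, fewer cells of a type and less RNA per cell cannot be told apart.

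Segment markers went with the labels. The summed level of 7 proximal tubule markers was 6588 to 24423 TPM per mouse in PTS1 to PTS3 and at most 529 TPM elsewhere. These 7 include Slc27a2, itself a gene of fatty acid uptake. The summed level of 4 thick limb markers was 22217 to 46336 TPM in MTAL and CTAL and at most 2272 TPM elsewhere. The number of genes at 1 TPM or more differed between groups, from a median of 11589 in PTS2 to 27852 in DTL1 and 26474 in glomeruli. Endothelial markers summed to 2764 to 3652 TPM in DTL1 and to 2993 to 3058 TPM in glomeruli, against 26.9 to 71.3 TPM in PTS1. The read depth behind each value is unknown, since TPM do not keep it.

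The 34 genes together made up the largest share of transcripts in the proximal tubule. Their summed level was 11180 ± 722 TPM (SD, n = 3) in PTS1, 25109 ± 942 (n = 5) in PTS2 and 16568 ± 1778 (n = 3) in PTS3, or 2.51 ± 0.0942% of all transcripts in PTS2. It was next highest in CTAL, DCT and MTAL, at 8811 ± 261 (n = 5), 7135 ± 442 (n = 3) and 6899 ± 645 TPM (n = 3). The lowest sums were 1650 ± 294 TPM in IMCD (n = 3), 2077 ± 559 in ATL (n = 4) and 2165 ± 47.7 in glomeruli (n = 3). Much of the proximal excess lay in the 4 ACSM genes: without them the sum was 6534 ± 107 TPM in PTS1, 14089 ± 856 in PTS2 and 10666 ± 938 in PTS3, and 8794 ± 260 in CTAL, so that PTS1 lay below CTAL.

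**Figure D1:**
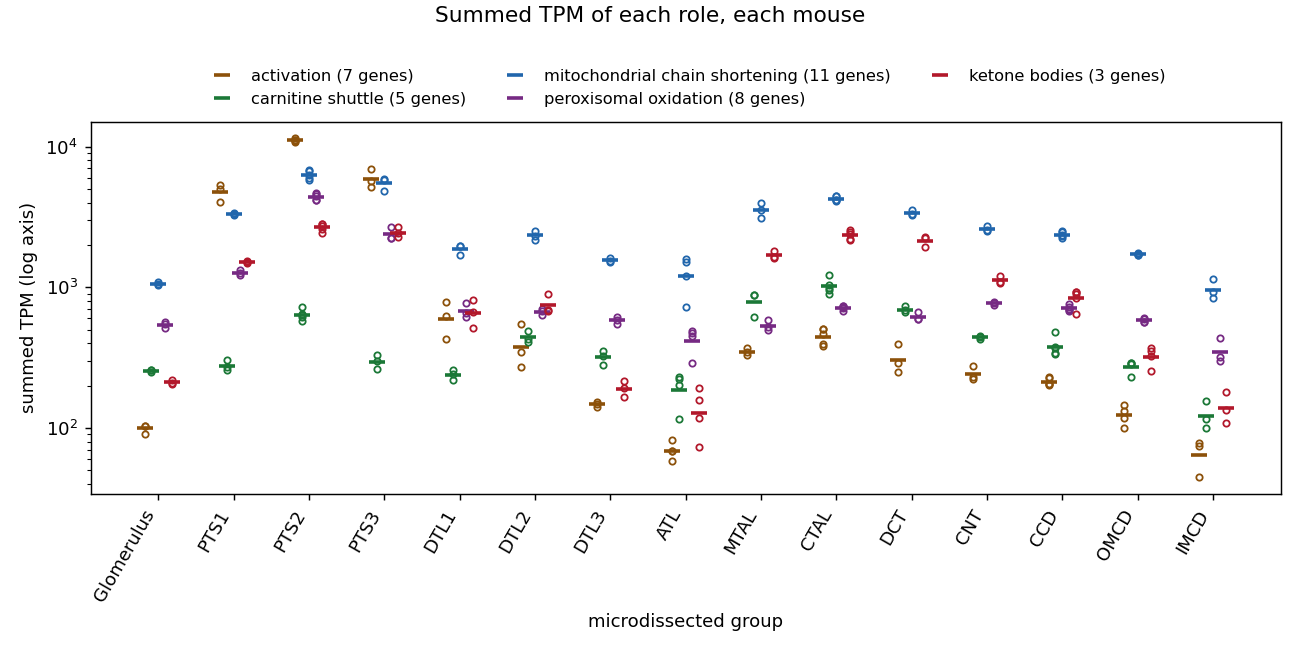
Summed TPM of the genes of each role (vertical log axis) in each of the 15 groups (horizontal axis); circles are mice and short bars are means taken on the log scale. Activating enzymes lead in PTS1, PTS2 and PTS3 and lie at the bottom of the set in MTAL, CTAL, DCT and the collecting duct, where mitochondrial chain shortening leads.

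The balance between mitochondria and peroxisomes also differed along the tubule. The summed peroxisomal level was 0.699 ± 0.0283 of the summed mitochondrial chain shortening level in PTS2 (n = 5), 0.436 ± 0.0477 in PTS3 and 0.384 ± 0.00989 in PTS1 (n = 3 each). Glomeruli lay between PTS2 and PTS3, at 0.513 ± 0.0229 (n = 3). DTL3, DTL1 and IMCD were close to PTS1, at 0.373 ± 0.0163, 0.364 ± 0.0257 and 0.362 ± 0.0324 (n = 3 each). In MTAL, CTAL and DCT this ratio was 0.151 ± 0.00598, 0.167 ± 0.00496 and 0.183 ± 0.00407, and no mouse of those segments overlapped any mouse of another group. Ketone body genes were at a similar summed level in PTS2, PTS3, CTAL and DCT, at 2673 ± 171, 2443 ± 207, 2360 ± 166 and 2146 ± 192 TPM.

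Every member differed among the 15 groups by limma's moderated F-test, 34 of 34, where 93.9% of all 33793 genes tested did. The members were highest in different places: 15 in PTS2, 4 in PTS3, 2 in PTS1, 7 in CTAL, 2 in CNT, and 1 each in DTL1, DTL2, DTL3 and DCT. Of the 34, 14 were lowest in IMCD, 8 in PTS3 and 8 in ATL. Only 2 members exceeded each of the other 14 groups by at least 1 on the log2(TPM + 1) scale with an adjusted p under 0.05, against 8.8% of all genes. These were Acox3 in PTS2, 1.58 above the next group (limma intersection-union test, adjusted p 1.06e-08), and Acaa1b in PTS2, 1.56 above the next group (adjusted p 0.00168), which did not pass with a pseudocount of 0.1. Median ratio rescaling added Acaa2 in PTS1 (margin 1.31, limma adjusted p 9.28e-07), and a pseudocount of 5 added Acsl3 in DTL2 (1.01, 0.0424).

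**Figure D2:**
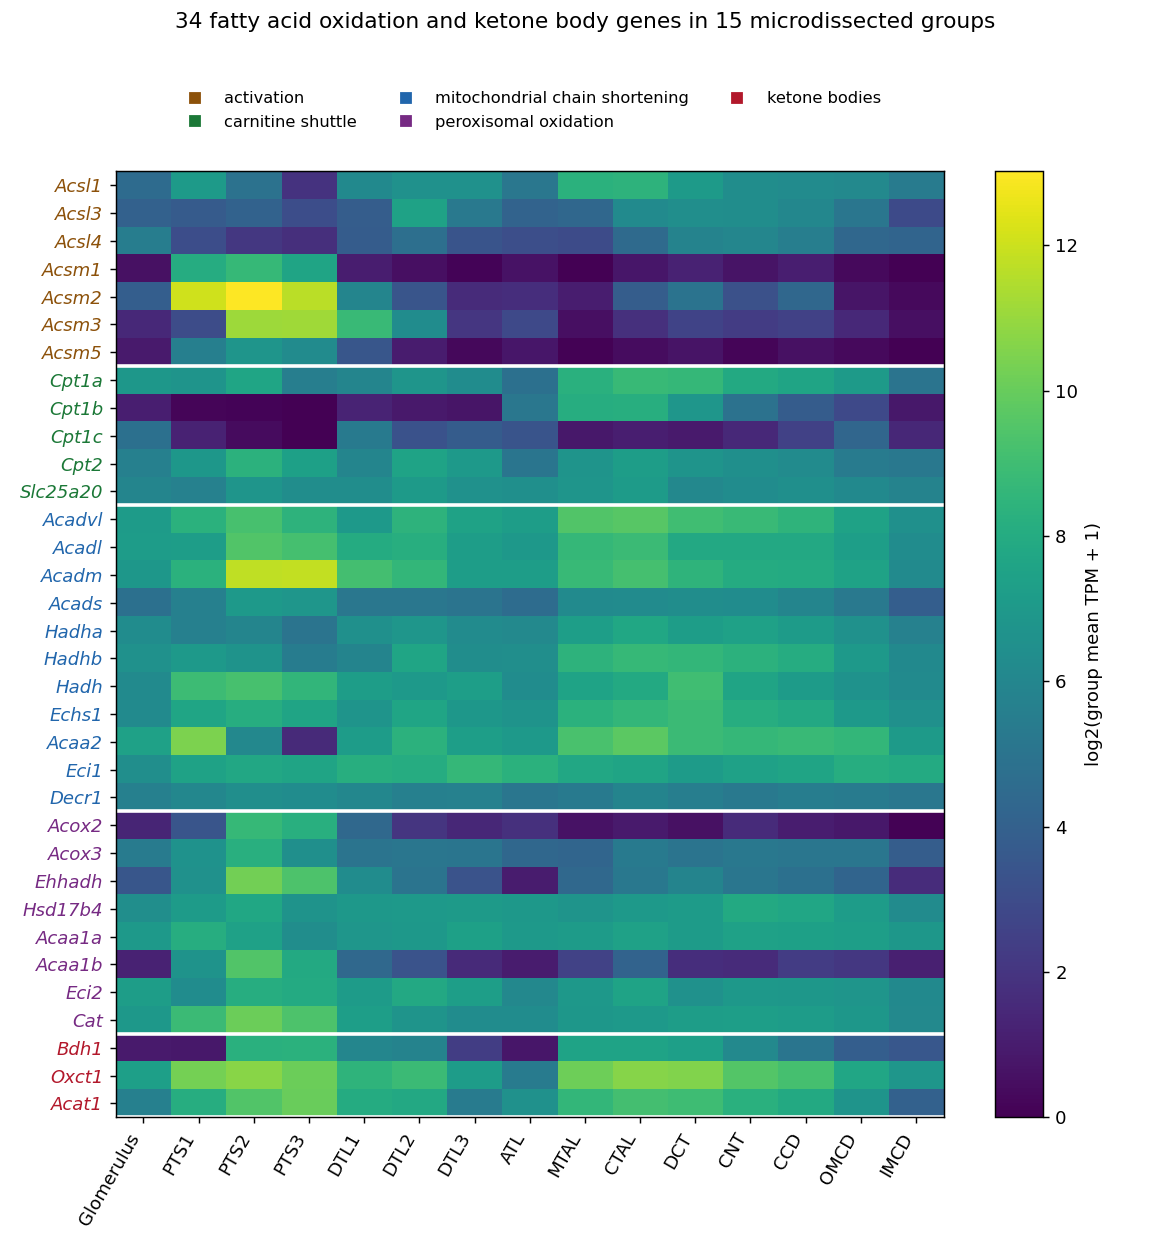
Group mean of each of the 34 genes as log2(mean TPM + 1) (colour) in the 15 groups (columns), with the genes (rows) ordered and coloured by role. Most of the brightest cells are in PTS2 and PTS3, with a second band in MTAL, CTAL and DCT for Acsl1, Cpt1a, Cpt1b, Acadvl, Hadha, Hadhb, Acaa2 and Oxct1; Acaa2 is bright in PTS1 and dark in PTS3.

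The activating enzymes split by family. Acsm2 was the most abundant member, with 4841, 4575 and 3560 TPM in the 3 PTS1 mice, 8303, 8655, 8324, 7894 and 8200 TPM in the 5 PTS2 mice and 3800, 2959 and 3170 TPM in the 3 PTS3 mice. Outside the proximal tubule no mouse exceeded 144.1 TPM, so the groups did not overlap. Acsm1 and Acsm5, further medium-chain synthetases, were also highest in PTS2, at 425 ± 35.4 and 109.6 ± 16.0 TPM, with group means at or below 1.40 and 10.4 TPM outside the proximal tubule.

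Acsm3 differed from its relatives in the first part of the proximal tubule. The PTS1 mice had 21.08, 0.305 and 0.25 TPM of Acsm3, while the PTS2 mice had 2599, 1868, 2215, 2276 and 2094 TPM and the PTS3 mice 2747, 1972 and 2256 TPM. PTS1 thus lay below every PTS2 and PTS3 mouse, although the same PTS1 mice held 3560 to 4841 TPM of Acsm2. Acsm3 was also present in DTL1, at 545.3, 280.7 and 515.7 TPM, and in 1 of 3 DTL2 mice at 205 TPM against 7.865 and 25.2 TPM in the others. The same DTL1 mice had 529, 218 and 417 TPM of proximal markers in sum, and the DTL2 mice 158, 58.5 and 19.5 TPM, with the highest DTL2 value in the mouse with the most Acsm3. The ratio of Acsm3 to Acsm2 was 3.78 to 43.8 in DTL1 and 0.959 to 11.2 in DTL2, against 0.216 to 0.313 in PTS2 and 0.666 to 0.723 in PTS3. The part of proximal transcripts in the thin limb values was not tested.

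Long-chain synthetases were placed otherwise. Acsl1, which serves oxidation in many tissues, had 135.3, 118.1 and 145.8 TPM in PTS1, 32.18, 35.95, 26.98, 23.43 and 27.82 TPM in PTS2 and 1.325, 3.335 and 3.43 TPM in PTS3, with no overlap between neighbouring parts. It was 319 ± 12.04 TPM in MTAL (n = 3) and 335.5 ± 65.5 TPM in CTAL (n = 5), which overlapped each other and exceeded all other groups. Acsl3 was highest in DTL2, at 195.5, 148.4 and 188.8 TPM, above the highest value of any other group, 92.84 TPM in DCT. Acsl4, known for a preference for arachidonic acid, was highest in CNT (62.8 ± 2.36 TPM, n = 3) and DCT (54.6 ± 4.77, n = 3) and was at or below 7.81 TPM in every proximal mouse.

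In the carnitine shuttle, the 3 genes for carnitine palmitoyltransferase 1 had separate distributions. Cpt1a, the form known from liver, was found in every mouse, from 21.92 TPM in an IMCD mouse to 555.8 TPM in a CTAL mouse. Cpt1b, the form known from muscle and heart, was at 0 in all 3 PTS3 mice and at most 0.27 TPM in PTS1 and PTS2. It had 269.9, 325.8 and 217 TPM in MTAL, 261.9, 278.4, 282.9, 321.2 and 303.7 TPM in CTAL and 126.6, 101.9 and 113.5 TPM in DCT. From there Cpt1b was lower step by step, with means of 28.9 ± 1.98 TPM (CNT), 12.8 ± 3.41 TPM (CCD), 6.345 ± 2.39 TPM (OMCD) and 0.813 ± 0.261 TPM (IMCD), and neighbouring groups from CTAL to IMCD did not overlap.

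The share of the muscle form among all Cpt1 transcripts also differed along the tubule. Cpt1b made up 46.9 ± 2.86% of the Cpt1 sum in MTAL, 39.9 ± 2.10% in CTAL, 21.8 ± 1.28% in DCT and 10.6 ± 0.767% in CNT, and at most 0.149% in any proximal mouse. In ATL it was 47.2 ± 16.8%, from lower levels: Cpt1b had 55.8, 33.99, 12.45 and 38.61 TPM there, in mice whose thick limb markers summed to 676, 783, 325 and 723 TPM. The lowest of these values of Cpt1b and of the thick limb markers was in the same mouse, while among the other mice Cpt1b was lower where the markers were higher. The part of thick limb transcripts in the ATL values was not tested.

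Cpt1c, the form known from brain, was highest in DTL1, glomeruli and OMCD. It had 33.59, 37.77 and 43.03 TPM in DTL1, 29.3, 29.6 and 22.4 TPM in glomeruli and 19.46, 14.72, 19.76 and 19.79 TPM in OMCD, and at most 1.85 TPM in every proximal, thick limb and DCT mouse. Cpt2, which returns the acyl group to coenzyme A, was highest in PTS2 (324 ± 26.4 TPM, n = 5), above every mouse of the other groups. Slc25a20, the translocase that carries acylcarnitines inward, varied least in this role, from 51.6 ± 8.14 TPM in PTS1 to 139 ± 12.5 TPM in CTAL.

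**Figure D3:**
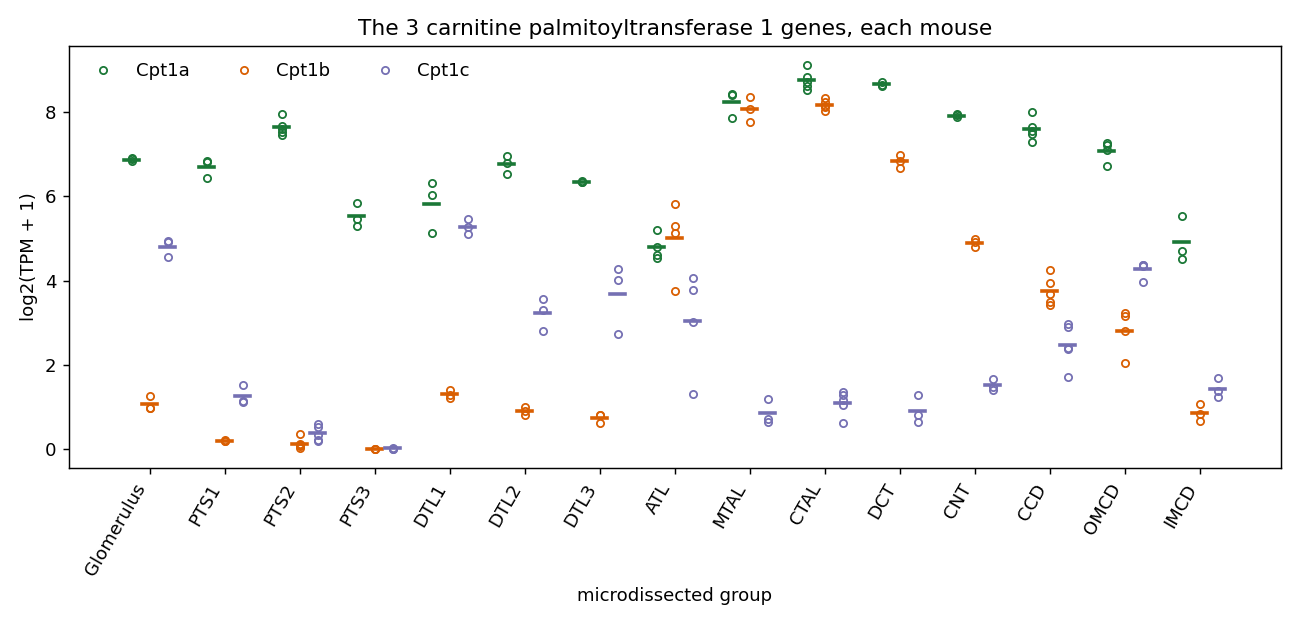
Log2(TPM + 1) of Cpt1a, Cpt1b and Cpt1c (vertical axis) in the 15 groups (horizontal axis); circles are mice and bars are group means. Cpt1b is low in PTS1 to PTS3 and DTL1 to DTL3, close to Cpt1a in ATL, MTAL and CTAL, and well below it from DCT to IMCD, while Cpt1c stands out in glomeruli, DTL1 and OMCD.

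Within mitochondrial chain shortening, the chain-length dehydrogenases were ordered differently in the proximal tubule and in the thick limb. Acadm, the medium-chain acyl-CoA dehydrogenase, had 340.2, 310.5 and 290.1 TPM in PTS1, then 3669, 3061, 3448, 3238 and 3933 TPM in PTS2 and 3761, 3077 and 3869 TPM in PTS3. PTS2 and PTS3 overlapped each other and no other group, since the next highest mouse was a DTL1 mouse with 647.4 TPM. Acadvl, the very-long-chain enzyme, was instead highest in CTAL (793 ± 30.01 TPM, n = 5) and MTAL (721 ± 47.9, n = 3), above PTS2 (598 ± 45.4, n = 5). Acadl, the long-chain enzyme, was highest in PTS2 (709.6 ± 55.3 TPM) and PTS3 (570.4 ± 52.9), followed by CTAL (463 ± 32.5), and Acads, the short-chain enzyme, was highest in PTS2 at 129 ± 9.13 TPM, where it overlapped PTS3.

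Acaa2, a thiolase of the mitochondrial spiral, fell along the proximal tubule, while Acadm was higher in PTS2 than in PTS1 and overlapped between PTS2 and PTS3. It had 1381, 1337 and 1420 TPM in PTS1, 88.39, 70.9, 70.53, 51.49 and 49.82 TPM in PTS2 and 1.675, 2.6 and 1.66 TPM in PTS3, with wide gaps between the 3 parts. In PTS3 it was the lowest of all 15 groups, although the mean of Acadm was highest there. The ratio of Acaa2 to Acadm was 4.06 to 4.90 in PTS1, 0.0127 to 0.0241 in PTS2 and 0.000429 to 0.000845 in PTS3, and 1.25 to 1.64 in MTAL, CTAL and DCT. Elsewhere Acaa2 was high in CTAL (858 ± 61.8 TPM, n = 5) and MTAL (629 ± 142, n = 3).

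**Figure D4:**
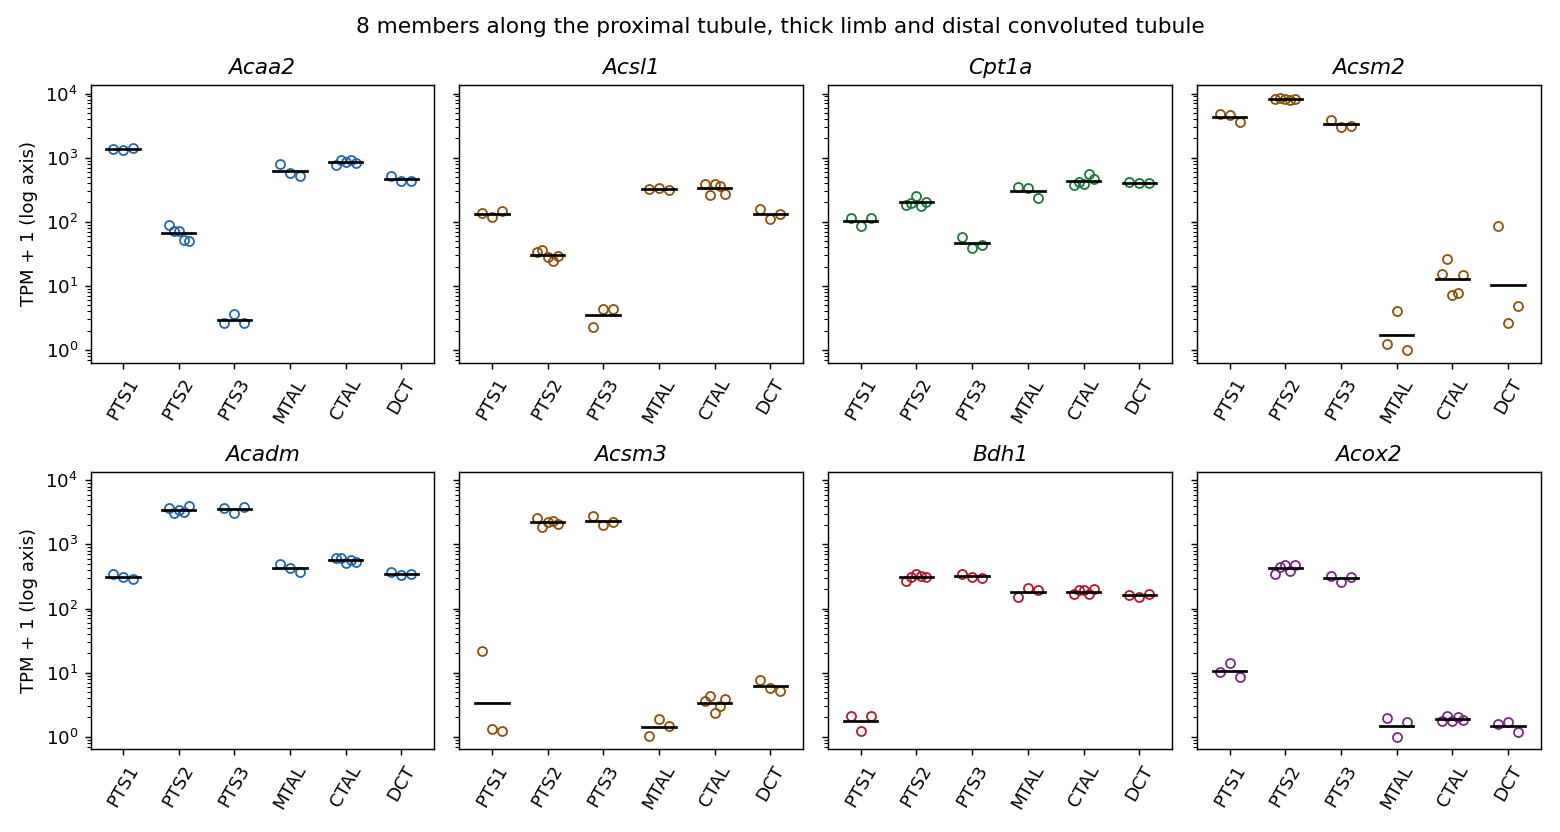
TPM + 1 on a log axis for 8 members in PTS1, PTS2, PTS3, MTAL, CTAL and DCT; circles are mice and bars are means taken on the log scale. Acaa2 and Acsl1 step down from PTS1 to PTS3 and are high again in MTAL and CTAL, while Acadm, Acsm3, Bdh1 and Acox2 step up between PTS1 and PTS2.

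The 2 subunits of the mitochondrial trifunctional protein, Hadha and Hadhb, which handle long-chain intermediates, were both highest in CTAL, and both were lowest of the proximal parts in PTS3. Hadhb had 363.1, 382.6 and 278.6 TPM in MTAL, 422 ± 12.4 TPM in CTAL and 391 ± 8.63 TPM in DCT, against 130.2 ± 4.96 TPM in PTS1, 102 ± 5.50 in PTS2 and 43.4 ± 2.99 in PTS3. Hadha had 212 ± 24.3 TPM in CTAL and 30.9 ± 9.31 TPM in PTS3. They did not keep in step everywhere: from PTS1 to PTS2 the mean was higher for Hadha (50.1 and 59.1 TPM) and lower for Hadhb, and in DTL1 Hadha (90.7 TPM) exceeded Hadhb (57.7 TPM). Over the 53 mice, the level of Hadha spanned 10.4-fold and that of Hadhb 11.5-fold, while their ratio had a median of 0.590 and ranged from 0.356 in a DCT mouse to 3.29 in a DTL1 mouse. Hadh, the short-chain hydroxyacyl-CoA dehydrogenase, had a peak in PTS2, at 603 ± 22.5 TPM, and another in DCT, at 528 ± 8.79 TPM, with 236 ± 15.7 TPM in CTAL.

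Other enzymes of this role varied less. Echs1, the short-chain enoyl-CoA hydratase, was highest in DCT (471 ± 13.7 TPM, n = 3), and every DCT mouse exceeded every mouse of the other groups. Eci1, an isomerase for unsaturated chains, was highest in DTL3, at 439.7, 403.9 and 373.7 TPM, which overlapped ATL, with 231.5 to 375.6 TPM. Decr1, a reductase for unsaturated chains, ranged over the group means from 33.9 TPM in ATL to 85.7 TPM in PTS2.

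The peroxisomal members were mostly genes of PTS2. Ehhadh, a bifunctional enzyme, had 1409, 1113, 1296, 1040 and 1284 TPM in PTS2 and 765, 636.4 and 617.1 TPM in PTS3, against 106.3, 98.69 and 77.06 TPM in PTS1. Acox2, the oxidase for branched chains and bile acid precursors, had 345.4, 441.3, 473.3, 387.5 and 471.2 TPM in PTS2 but 9.09, 13.17 and 7.44 TPM in PTS1. For both genes the 3 parts of the proximal tubule did not overlap. Outside the proximal tubule Acox2 stayed at or below 2.495 TPM from MTAL to IMCD and reached 27.39 and 31.16 TPM in 2 of 3 DTL1 mice.

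Cat, the gene for catalase, was at 471 ± 0.430 TPM in PTS1, 1091 ± 43.8 in PTS2 and 668 ± 99.2 in PTS3, and at most 218.7 TPM in every other mouse. Acox3, a further oxidase, had 299 ± 22.5 TPM in PTS2 and a PTS1 level of 100.03 ± 11.5 TPM. Hsd17b4, the second bifunctional enzyme, varied less, from 77.7 ± 28.3 TPM in IMCD to 239.6 ± 2.32 TPM in CNT, and Eci2, an isomerase, ranged from 67.1 TPM in ATL to 277 TPM in PTS2.

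The 2 genes for the peroxisomal thiolase had different courses. Acaa1a was at 279.6 ± 31.8 TPM in PTS1, 175 ± 17.7 in PTS2 and 83.7 ± 4.50 in PTS3, and Acaa1b at 100.8 ± 2.16, 707 ± 92.6 and 238 ± 23.2 TPM. Their ratio, Acaa1b over Acaa1a, was 0.335 to 0.421 in PTS1, 3.79 to 4.44 in PTS2 and 2.60 to 3.31 in PTS3, and at most 0.207 in every mouse outside the proximal tubule. Of the distinct 50-base stretches of the Acaa1b transcripts in the GENCODE M21 annotation, 30.5% also occur in Acaa1a, so the split of reads between the 2 genes is uncertain.

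Of the ketone body enzymes, Oxct1, which activates acetoacetate in tissues that use it, was abundant in both the proximal tubule and the thick limb. It had 1646 ± 158 TPM in PTS2, 1613 ± 119.7 in CTAL and 1481 ± 169.7 in DCT, whose mice overlapped, and 41.1 ± 15.04 TPM in ATL. Acat1, the thiolase that splits acetoacetyl-CoA, was highest in PTS3 (1123, 917.2 and 1074 TPM) and above every other mouse there. Bdh1, which oxidises hydroxybutyrate to acetoacetate, was nearly absent from PTS1, at 1.12, 0.215 and 1.11 TPM, but had 266, 304.4, 343.1, 318.5 and 312.1 TPM in PTS2 and 347.2, 311.3 and 298.1 TPM in PTS3. MTAL, CTAL and DCT mice lay between, from 149.1 to 208.7 TPM.

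Sequences upstream of the genes were compared between the members called higher in the proximal tubule and those called higher in the thick limb and DCT. Of the 34 members, 29 matched the RefSeq promoter table (GRCm38.p6) by symbol, with 33 windows of 250 bases before to 50 after a gene start. The 12 windows of members called higher in the proximal tubule than in the thick limb and DCT (named below) held a median of 4 CG dinucleotides, those of members called lower a median of 22 (9 windows) and those of the other members 14.5 (12 windows). Fewer than 8 CG dinucleotides were found in 8 of these 12, 2 of 9 and 0 of 12 windows, and in 51.4% of all 32851 windows. The 8 belong to the neighbouring and related ACSM genes, to Acox2 and to Acaa1b, so they are not independent. The windows of Cat, Acadm, Ehhadh and Acox3 held 11, 13, 14 and 22. The counts are a description with no test, and genes with 2 listed starts are counted at each.

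The 250 bases before the start are shown for 5 members called higher in the proximal tubule and for 2 called higher in the thick limb and DCT, with each CG in capitals, so that sparse and dense promoters can be seen side by side. The 5 were chosen after their counts were seen: the first 4 are among the sparsest and Acox3 is the densest of those called higher in the proximal tubule. The ACSM genes are neighbours: the starts of Acsm5, Acsm2, Acsm1 and Acsm3 lie in this order on the plus strand of chromosome 7, within 235 kb, and of these Acsm3 had the lowest levels in PTS1.
Acsm5, chr7:119526015-119526264, plus strand: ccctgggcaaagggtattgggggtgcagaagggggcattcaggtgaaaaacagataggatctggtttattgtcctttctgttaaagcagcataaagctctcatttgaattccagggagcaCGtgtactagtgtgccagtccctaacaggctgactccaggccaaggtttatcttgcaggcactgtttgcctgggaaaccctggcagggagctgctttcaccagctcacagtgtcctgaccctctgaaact
Acsm2, chr7:119554090-119554339, plus strand, the first of 2 listed starts: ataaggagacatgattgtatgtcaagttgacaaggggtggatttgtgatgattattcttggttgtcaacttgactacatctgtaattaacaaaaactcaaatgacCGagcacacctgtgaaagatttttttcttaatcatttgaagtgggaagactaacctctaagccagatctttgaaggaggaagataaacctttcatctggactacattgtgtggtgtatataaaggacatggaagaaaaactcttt
Acsm1, chr7:119617562-119617811, plus strand: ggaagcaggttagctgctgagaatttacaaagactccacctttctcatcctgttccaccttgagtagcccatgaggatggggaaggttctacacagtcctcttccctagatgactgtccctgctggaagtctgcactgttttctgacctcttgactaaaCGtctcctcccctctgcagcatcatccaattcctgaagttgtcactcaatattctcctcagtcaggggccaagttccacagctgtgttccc
Acaa1b, chr9:119157094-119157343, minus strand: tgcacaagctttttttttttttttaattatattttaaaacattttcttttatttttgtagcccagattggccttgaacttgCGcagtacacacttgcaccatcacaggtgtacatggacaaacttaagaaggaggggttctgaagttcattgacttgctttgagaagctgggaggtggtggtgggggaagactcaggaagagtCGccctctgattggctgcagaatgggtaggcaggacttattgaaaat
Acox3, chr5:35582784-35583033, plus strand: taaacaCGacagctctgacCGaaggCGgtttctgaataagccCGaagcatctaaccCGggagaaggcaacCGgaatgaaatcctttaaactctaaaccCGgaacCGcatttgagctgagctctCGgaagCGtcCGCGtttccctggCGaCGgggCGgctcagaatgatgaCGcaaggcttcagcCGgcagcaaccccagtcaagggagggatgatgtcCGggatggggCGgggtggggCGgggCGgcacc
Hadhb, chr5:30155003-30155252, plus strand: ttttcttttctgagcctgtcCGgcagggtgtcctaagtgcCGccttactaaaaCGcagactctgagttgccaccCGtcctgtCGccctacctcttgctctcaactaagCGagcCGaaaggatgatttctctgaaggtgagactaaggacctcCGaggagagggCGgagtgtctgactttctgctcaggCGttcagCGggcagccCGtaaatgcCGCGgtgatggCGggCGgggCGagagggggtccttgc
Cpt1a, chr19:3323051-3323300, plus strand: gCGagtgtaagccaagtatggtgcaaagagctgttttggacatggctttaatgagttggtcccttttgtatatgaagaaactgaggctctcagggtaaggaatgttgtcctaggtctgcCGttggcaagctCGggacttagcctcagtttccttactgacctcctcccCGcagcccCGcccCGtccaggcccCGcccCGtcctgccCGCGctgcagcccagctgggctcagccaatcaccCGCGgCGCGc
The first 3 of these hold 1 CG each and Acaa1b holds 2, against 21 in Acox3, 17 in Hadhb and 14 in Cpt1a. Acadm and Ehhadh, also called higher in the proximal tubule, hold 12 each and Cat 9 in these 250 bases. Hadha and Hadhb start 273 bases apart and point away from each other.

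Known binding motifs of regulators of these genes were searched on both strands of the windows. A direct repeat, AGGTCA followed by any base and AGGTCA, as bound by PPAR and RXR or by HNF4A, was in 0 of the 29 members and in 0.0396% of all windows. With any base allowed at the fourth place of each repeat, 0 of 29 members had it and 0.381% of all windows. The site TCAAGGTCA, known for ESRRA, was in 0 of 29 members and 0.423% of all windows. A single AGGTCA, which is part of the longer motifs, was in 7 of 29 members (Cpt1a, Cpt1c, Acadm, Acadvl, Echs1, Acsm1 and Cat) and in 16.3% of all windows. Members were counted by gene, while these shares are by window. By gene, the shares for the longer motifs were 0.0481%, 0.451% and 0.466%, in the order above.

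In all, 9 comparisons between groups were tested with limma on log2(TPM + 1), with Benjamini-Hochberg adjustment over all 33793 genes, and a gene was called at an adjusted p under 0.05 and a difference of at least 1. Differences are of means over mice on the log scale, with each segment counted equally where several were pooled, so they can differ in sign from differences of mean TPM. The SE is that of limma's fit, in which all 15 groups share 1 estimate of the spread of each gene. The SE and p therefore do not measure the spread within the compared groups alone.

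The proximal tubule (11 mice of PTS1, PTS2 and PTS3) and the thick limb with DCT (11 mice of MTAL, CTAL and DCT) shared the pathway unevenly. Of the members, 10 were called higher in the proximal tubule, where 4.84% of all genes were, and 9 higher in the thick limb and DCT, where 11.6% of all genes were, and 15 were not called. The 10 were the 4 ACSM genes, Acadm and 5 of the 8 peroxisomal genes (Acox2, Acox3, Ehhadh, Acaa1b and Cat). The 9 were the 3 ACSL genes, Cpt1a, Cpt1b, Hadha, Hadhb, Acaa2 and Bdh1. The median log2 difference of the 34 members was 0.17, against 0.01 over all genes. All 19 calls stayed under each alternative tried, including each mouse left out, though no alternative left out a whole segment here. Under median ratio rescaling the numbers were 13 and 9, and the share of all called genes that were higher in the proximal tubule moved from 29.5% to 48.1%. Endothelial markers summed to 26.9 to 132 TPM in PTS1 to PTS3 and 152 to 433 TPM in MTAL, CTAL and DCT. Leukocyte markers summed to 0.88 to 6.92 TPM and 13.4 to 96.9 TPM. Intercalated cell markers were at most 6.27 TPM in PTS1 to PTS3, at most 15.3 TPM in MTAL and CTAL and 782 to 848 TPM in DCT. The part of these marker lists in the differences was not tested.

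The differences were wide at both ends. Acsm2 was 9.85 ± 0.41 (SE) higher on the log2 scale in the proximal tubule (limma adjusted p 3.86e-25), Acsm1 7.61 ± 0.18 (7.06e-34) and Acsm3 6.25 ± 0.37 (2.79e-19). Cpt1b differed by -7.59 ± 0.15 (limma adjusted p 1.62e-37), Acaa2 by -3.40 ± 0.13 (7.54e-27) and Acsl1 by -3.35 ± 0.13 (1.26e-25). Among the most abundant members of each role, Cpt1a differed by -1.94 ± 0.12 (limma adjusted p 1.56e-18), Acadm by 1.83 ± 0.10 (2.43e-20), Cat by 2.40 ± 0.10 (6.45e-25) and Oxct1 by -0.09 ± 0.10 (0.746). The mice of both sides did not overlap for 11 of the 34 members, 8 of the 10 and 3 of the 9, where 13.8% of all genes did not. Acaa2 and Bdh1 belong to those that overlapped, since PTS1 held more Acaa2 than the thick limb and PTS2 and PTS3 held more Bdh1. Of the 10, Acadm and Acsm3 overlapped because of PTS1. Acadm had 290.1 to 340.2 TPM in PTS1, below every MTAL and CTAL mouse (373.3 to 621.5 TPM). Acsm3 had 21.08, 0.305 and 0.25 TPM in PTS1, against 0.015 to 6.6 TPM in MTAL, CTAL and DCT.

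**Figure D5:**
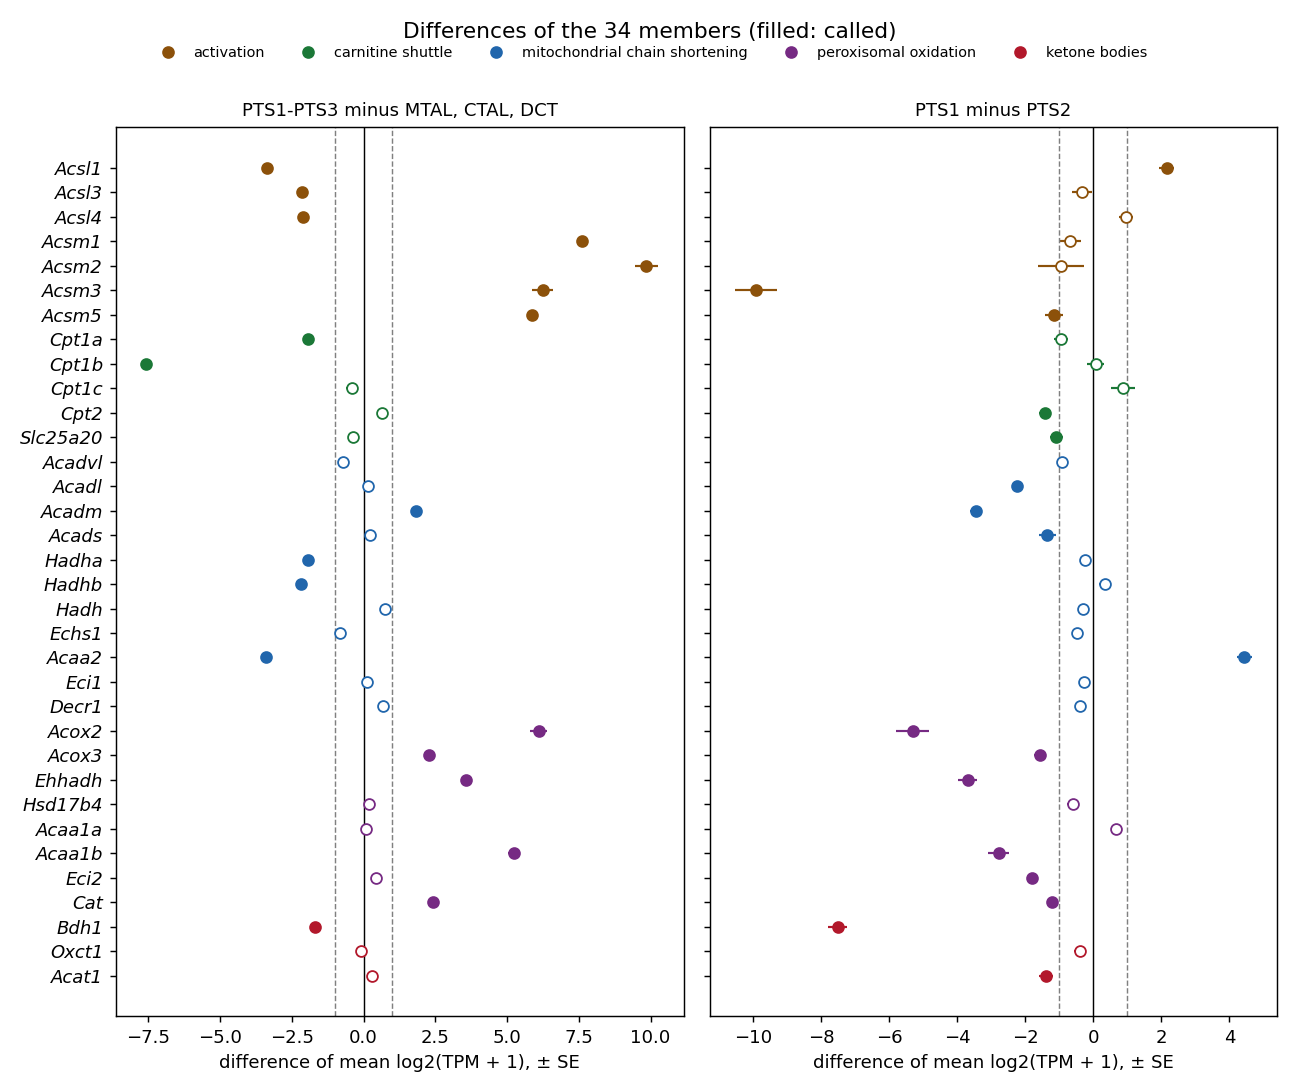
Difference of mean log2(TPM + 1) with its SE for each member, for PTS1 to PTS3 minus MTAL, CTAL and DCT (left) and for PTS1 minus PTS2 (right); filled points were called and dashed lines mark a difference of 1. ACSM and peroxisomal genes lie to the right on the left panel, and most called members lie to the left on the right panel, apart from Acaa2 and Acsl1.

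The first part of the proximal tubule differed from the second in 17 of the 34 members. Of these, 2 were called higher in PTS1 (3 mice), where 4.46% of all genes were, and 15 higher in PTS2 (5 mice), where 5.1% of all genes were. The mice of the 2 groups did not overlap for 32 of the 34 members, the 17 called ones among them, where 54.4% of all genes did not, and the median difference was -0.94 against 0.15 over all genes. The 15 held 6 of 8 peroxisomal genes, 3 of 11 mitochondrial genes, 2 each of activation, carnitine shuttle and ketone body use. Quantile normalization gave 2 and 9, median ratio rescaling 4 and 13, and the latter moved the share of all called genes that were higher in PTS1 from 46.6% to 66.5%. Under quantile normalization both genes of the carnitine shuttle, Cpt2 (-0.94) and Slc25a20 (-0.64), and Cat (-0.90), Acads (-0.84) and Acat1 (-0.995) were not called. Slc25a20 was also not called under median ratio rescaling (-0.91) or without PTS1 mouse 3 (-0.96), nor Acsm5 under median ratio rescaling (-0.99), quantile normalization (-0.69) or a pseudocount of 0.1 (-1.17, limma adjusted p 0.159).

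Acaa2 was 4.44 ± 0.21 higher in PTS1 (limma adjusted p 6.79e-22) and Acsl1 2.16 ± 0.22 higher (9.55e-11). In the other direction Acsm3 differed by -9.91 ± 0.62 (limma adjusted p 1.17e-17), Bdh1 by -7.52 ± 0.29 (3.21e-25) and Acox2 by -5.32 ± 0.49 (3.05e-12). Among the most abundant, Ehhadh differed by -3.70 ± 0.27 (limma adjusted p 1.76e-15), Acadm by -3.45 ± 0.17 (2.01e-21) and Cpt2 by -1.43 ± 0.17 (2.86e-09). Acsm2, at -0.95 ± 0.68 (limma adjusted p 0.429), and Oxct1, at -0.39 ± 0.17 (0.123), were not called. The mice did not overlap for Acsm2, with 3560 to 4841 TPM in PTS1 and 7894 to 8655 TPM in PTS2. Its SE rests on the spread in all 15 groups. Proximal markers summed to 12560 to 13584 TPM in PTS1 and 20189 to 24423 TPM in PTS2. This sum includes Slc27a2, a fatty acid gene described below, which held most of it in PTS2. Thin limb markers summed to 11.8 to 34.7 TPM and 434 to 596 TPM, and principal cell markers to 85.7 to 103 TPM and 37.1 to 42.2 TPM. The part of these marker lists in the differences was not tested.

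From the second to the third part, 10 members were called higher in PTS2, where 3.94% of all genes were, and 0 higher in PTS3, where 0.755% of all genes were, with a median difference of 0.64 against 0.00 over all genes. Acaa2 was 4.75 ± 0.21 higher in PTS2 (limma adjusted p 1.07e-21), Acsl1 3.17 ± 0.22 (5.42e-15) and Cpt1a 2.13 ± 0.20 (4.28e-11). The others called were Acox3, Acaa1b, Acsl3, Hadhb, Acsm1, Hsd17b4 and Acaa1a, by 1.06 to 1.78. The mice did not overlap for 27 of the 34 members, the 10 among them, where 21.3% of all genes did not. Among the most abundant, Acsm2 (1.33 ± 0.68, limma adjusted p 0.285), Cpt2 (0.94 ± 0.17, 4.03e-05), Ehhadh (0.86 ± 0.27, 0.0215), Oxct1 (0.59 ± 0.17, 0.013) and Acadm (-0.05 ± 0.17, 1) were not called. For Acsm2 the SE rests on all 15 groups, while its mice did not overlap, with 7894 to 8655 TPM in PTS2 and 2959 to 3800 TPM in PTS3. In PTS3, proximal markers summed to 6588 to 9518 TPM, thin limb markers to 390.2 to 582 TPM and principal cell markers to 0.095 to 0.52 TPM, and their part in these differences was not tested. At an unadjusted p under 0.05, limma gave 1 member higher in PTS3, where 5.29% of all genes passed. Without PTS3 mouse 2, Acsm1 (0.99) and Hsd17b4 (0.92) were not called. Quantile normalization gave 5 calls, without Acsl3 (0.82), Acsm1 (0.77), Hadhb (0.73), Hsd17b4 (0.70) and Acaa1a (0.67), and median ratio rescaling gave 7, without Acsm1 (0.96), Hsd17b4 (0.89) and Acaa1a (0.85). With a pseudocount of 0.1, Acaa1b (limma adjusted p 0.0757) and Acsm1 (0.438) were not called, nor was Acsl3 with a pseudocount of 5 (0.86) or with pieces averaged before the log (0.9986). Under quantile normalization the share of all called genes that were higher in PTS2 moved from 83.9% to 65.6%.

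Beyond DCT, 16 of the 34 members were lower. Between the thick limb with DCT (11 mice) and the connecting tubule with the collecting duct (15 mice of CNT, CCD, OMCD and IMCD), those 16 were called higher in the first, where 2.76% of all genes were. Only Cpt1c was called higher in the second, where 6.02% of all genes were, and the median difference was 0.85 against -0.18. All 3 ketone body genes, 7 of 11 mitochondrial genes and 3 of 5 genes of the carnitine shuttle were among the 16, with 2 peroxisomal genes (Ehhadh and Acaa1b) and Acsl1. Under median ratio rescaling the numbers were 18 and 1, and the share of all called genes that were higher in the thick limb and DCT moved from 31.4% to 51.2%. Under quantile normalization they were 17 and 0: Cpt1c was not called there (-0.96). With a pseudocount of 5, Cpt1c (-0.75), Ehhadh (0.93), Acaa1b (0.63) and Acaa2 (0.99) were not called. Intercalated cell markers summed to 5096 to 5801 TPM in CNT, 3912 to 5139 TPM in CCD and 2419 to 3287 TPM in OMCD, against at most 15.3 TPM in MTAL and CTAL, 782 to 848 TPM in DCT and at most 4.79 TPM in IMCD. Principal cell markers summed to 9371 to 57683 TPM in CNT, CCD, OMCD and IMCD and at most 275.6 TPM in MTAL, CTAL and DCT, and the part of both cell types in these differences was not tested.

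Cpt1b was 4.63 ± 0.14 higher in the thick limb and DCT (limma adjusted p 3.57e-30), Bdh1 2.86 ± 0.16 (9.76e-20) and Acat1 2.20 ± 0.11 (5.34e-21). Oxct1 followed with 2.14 ± 0.10 (limma adjusted p 2.38e-23), Acsl1 with 1.89 ± 0.12 (2.48e-17), Cpt1a with 1.69 ± 0.11 (3.88e-17) and Acadvl with 1.56 ± 0.08 (2.01e-20). Hsd17b4 was not called, at -0.28 ± 0.09 (limma adjusted p 0.0105), and Cpt1c differed by -1.44 ± 0.19 (1.81e-08). Acaa2 sat at the limit, at 1.0003 ± 0.12 (limma adjusted p 1.07e-09), and fell below 1 when single mice were left out, as low as 0.94 without MTAL mouse 1. Acaa1b, at 1.05, was not called without DCT mouse 1 (0.95) or CNT mouse 3 (0.98).

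MTAL and CTAL differed in 5 members. Of the members, 0 were called higher in MTAL (3 mice), where 0.589% of all genes were, and 5 higher in CTAL (5 mice), where 2.57% of all genes were. At an unadjusted p under 0.05, limma gave 0 members higher in MTAL and 20 higher in CTAL, where 4.15% and 9.77% of all genes passed. The mice did not overlap for 23 of the 34 members, where 18% of all genes did not. Acsm2 differed by -3.08 ± 0.68 (limma adjusted p 0.00167), Acsl3 by -1.93 ± 0.29 (4.06e-06) and Acaa1b by -1.58 ± 0.31 (3.62e-04), and Acsl4 and Acox3 were also called. Acaa1b was not called with a pseudocount of 0.1 (limma adjusted p 0.0722), nor Acox3 with a pseudocount of 5 (-0.94) or under quantile normalization (-0.87). For Acsm2 these are low levels, 0.245, 3.005 and 0 TPM in MTAL and 6.14 to 25.36 TPM in CTAL, and the CTAL mice also had 28.1 to 86.6 TPM of summed proximal markers, against 0.475 to 4.385 in MTAL; the part of proximal transcripts was not tested. Of the most abundant members, Eci2 (-0.62 ± 0.15, limma adjusted p 0.00492), Cpt1a (-0.52 ± 0.20, 0.135), Oxct1 (-0.52 ± 0.17, 0.0566), Acaa2 (-0.47 ± 0.21, 0.261) and Acsl1 (-0.05 ± 0.22, 1) were not called. Thin limb markers summed to 941 to 1047 TPM in MTAL and 459 to 529 TPM in CTAL. Leukocyte markers summed to 59.6 to 96.9 TPM and 27.1 to 49.2 TPM. Intercalated cell markers were at most 0.09 TPM in MTAL and 8.23 to 15.3 TPM in CTAL. The part of these marker lists in the differences was not tested.

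Between CTAL (5 mice) and DCT (3 mice), 4 members were called higher in CTAL, where 2.34% of all genes were, and 2 higher in DCT, where 2.01% of all genes were. Acaa1b was 2.495 ± 0.31 higher in CTAL (limma adjusted p 2.31e-08), Cpt1b 1.34 ± 0.24 (6.34e-05) and Acsl1 1.32 ± 0.22 (1.94e-05), with Slc25a20 as the fourth, which was not called under median ratio rescaling (0.97) or quantile normalization (0.95). Acsl4, at -1.33 ± 0.20 (limma adjusted p 1.56e-06), and Hadh, at -1.16 ± 0.15 (2.86e-08), were higher in DCT. Intercalated cell markers summed to 782 to 848 TPM in DCT and 8.23 to 15.3 TPM in CTAL, and their part in these differences was not tested. The mice did not overlap for 22 of the 34 members, these 6 among them, where 22.1% of all genes did not. Eci2 (0.97 ± 0.15, limma adjusted p 3.92e-06), Acaa2 (0.90 ± 0.21, 0.0024), Oxct1 (0.13 ± 0.17, 1) and Cpt1a (0.10 ± 0.20, 1) were not called. In 1 DCT mouse Acsm2 was at 84.62 TPM, against 1.61 and 3.83 TPM in the others, and that mouse had 228 TPM of proximal markers, against 6.365 and 8.155 TPM.

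The outer and inner medullary collecting duct differed in 12 members. Against IMCD (3 mice), 12 members were called higher in OMCD (4 mice), where 15.2% of all genes were, and 0 higher in IMCD, where 3.4% of all genes were; the median difference was 0.88 against 0.32. Cpt1c was 3.02 ± 0.36 higher in OMCD (limma adjusted p 2.38e-09), Acat1 2.79 ± 0.21 (9.44e-15), Ehhadh 2.59 ± 0.28 (2.40e-10), Cpt1a 2.18 ± 0.21 (1.16e-11) and Acaa2 1.56 ± 0.22 (1.48e-07). Oxct1 (0.87 ± 0.18, limma adjusted p 1.26e-04), Acsl1 (0.74 ± 0.23, 0.0127) and Acaa1a (0.45 ± 0.11, 0.00148) were not called. OMCD holds intercalated cells and IMCD does not by their markers, 2419 to 3287 TPM in sum against 0.333 to 4.79 TPM. Thin limb markers summed to 114 to 142 TPM in OMCD and 1405 to 2693 TPM in IMCD. Endothelial markers summed to 364 to 486 TPM in OMCD and 21.0 to 302 TPM in IMCD, and proximal markers to 11.9 to 19.7 TPM and 0.447 to 1.28 TPM. The part of these marker lists in the differences was not tested. At an unadjusted p under 0.05, limma gave 0 members higher in IMCD, where 8.23% of all genes passed. Acadl was not called without OMCD mouse 3 (0.99), OMCD mouse 4 (0.96) or IMCD mouse 2 (0.85), under median ratio rescaling (0.75) or quantile normalization (0.92), with a pseudocount of 5 (0.97) or with pieces averaged before the log (0.985). Acaa1b was not called without OMCD mouse 2 or IMCD mouse 1 (0.97 each), under median ratio rescaling (0.84) or quantile normalization (0.21, limma adjusted p 0.644), with a pseudocount of 5 (0.44) or with pieces averaged before the log (0.99). Cpt1b was not called with a pseudocount of 5 (0.94), nor Acox3 under quantile normalization (0.90). Under quantile normalization 9 were called, and the share of all called genes that were higher in OMCD moved from 81.7% to 46.1%.

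The thick limb (8 mice of MTAL and CTAL) was set against the 13 mice of the thin limbs. Of the members, 14 were called higher in the thick limb, where 3.61% of all genes were, and 4 higher in the thin limbs, where 32.3% of all genes were, and the median difference was 0.69 against -0.71. Cpt1b was 6.17 ± 0.15 higher in the thick limb (limma adjusted p 7.67e-33), Bdh1 3.89 ± 0.18 (9.46e-23), Oxct1 2.94 ± 0.11 (1.47e-26), Cpt1a 2.58 ± 0.13 (7.55e-22), Acsl1 2.25 ± 0.14 (3.36e-18) and Acadvl 2.05 ± 0.09 (6.90e-23). Acaa1a was not called, at 0.25 ± 0.07 (limma adjusted p 0.0013). The 4 in the other direction were Cpt1c at -2.85 ± 0.21 (limma adjusted p 1.60e-15), Acsm3 at -2.84 ± 0.39 (1.94e-08), Acox2 at -1.21 ± 0.31 (4.78e-04) and Acsm5 at -1.04. Proximal markers summed to 218 to 529 TPM in DTL1 and 0.475 to 86.6 TPM in MTAL and CTAL, and endothelial markers to 633 to 3652 TPM in DTL1 to DTL3 and 152 to 433 TPM in MTAL and CTAL. Principal cell markers summed to 1494 to 1881 TPM in DTL3, 162 to 247 TPM in ATL and 49.99 to 171 TPM in MTAL and CTAL; the part of these 3 marker lists in the differences was not tested. Ehhadh, one of the 14, was not called when 1 of 5 thin limb mice was left out (DTL1 mouse 3, DTL2 mouse 3, DTL3 mouse 2, ATL mouse 2 or ATL mouse 3, 0.97 to 0.995) or with ATL mice 4 and 6 alone (0.86). Without DTL1, Acox2 (-0.63, limma adjusted p 0.0748) and Acsm5 (-0.32, 0.104) were not called, and Acsm5 also fell short without DTL1 mouse 5 (-0.96), DTL2 mouse 1 (-0.96) or ATL mouse 4 (-0.94). With a pseudocount of 5, Acsm5 (-0.46), Acox2 (-0.66) and Ehhadh (0.60) were not called. Under quantile normalization Acsm5 (-0.10, limma adjusted p 0.489) and Acox2 (-0.22, 0.498) were not called, the numbers were 15 and 2, and the share of all called genes that were higher in the thick limb moved from 10.1% to 53.9%. Median ratio rescaling gave 18 and 2, without Acsm5 (-0.90) and Acox2 (-0.98). With ATL mice 2 and 3 alone, Acsm5 (-0.89) and Acox2 (-0.92) were not called, nor was Acsm5 with array weights (-0.86).

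Glomeruli, the filtering tufts of podocytes, endothelium and mesangium, were set against the tubule. Proximal tubule markers summed there to 28.9 to 55.3 TPM, leukocyte markers to 369 to 465.7 TPM and erythroid markers to 176 to 502 TPM, and their part in the differences was not tested. Of the 34, 2 were called higher in glomeruli (3 mice), where 31.6% of all genes were, and 15 higher in the mean of the 14 tubule segments (50 mice), where 3.94% of all genes were; the median difference was -0.93 against 0.69. Bdh1 differed by -4.30 ± 0.23 (limma adjusted p 2.85e-20), Acaa1b by -2.33 ± 0.25 (8.72e-11), Acsm3 by -2.17 ± 0.50 (2.21e-04), Acadm by -1.66 ± 0.14 (3.33e-14) and Oxct1 by -1.63 ± 0.14 (1.11e-13). Cpt1c was 2.72 ± 0.28 higher in glomeruli (limma adjusted p 1.84e-11) and Acsl4 1.58 ± 0.16 (1.84e-11). Acsm2 (-1.15 ± 0.55, limma adjusted p 0.0589), Cat (-0.47 ± 0.14, 0.00256) and Cpt1a (-0.03 ± 0.16, 0.871) were not called. Acox2 was not called without glomerulus mouse 3 (-1.01, limma adjusted p 0.061) or with a pseudocount of 5 (-0.98). Under median ratio rescaling the numbers were 2 and 23, and the share of all called genes that were higher in glomeruli moved from 88.9% to 78.3%, and to 49.3% under quantile normalization.

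Other genes of the pathway, 79 from a list of regulators, uptake, carnitine handling and further enzymes, were read out of the same fits. Between the proximal tubule and the thick limb with DCT, 4 of 10 uptake and binding genes were called higher in the first, where 4.84% of all genes were, and 5 in the second, where 11.6% of all genes were. Slc27a2, a fatty acid transporter with acyl-CoA synthetase activity, was at 777 TPM in PTS1 and 13253 TPM in PTS2, against 16.0 TPM in the thick limb and DCT. It was also counted among the proximal tubule markers. Fabp3, the fatty acid binding protein known from heart, was at 604 TPM in PTS1, 6.81 TPM in PTS2 and 717 TPM in the thick limb and DCT. Cd36, a fatty acid uptake receptor, went the other way in the proximal tubule: PTS1 had 5.06 TPM and PTS2 had 779 TPM.

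Of the 16 further peroxisomal genes, 6 were called higher in the proximal tubule and 1 in the thick limb and DCT, beside 4.84% and 11.6% of all genes. Between PTS1 and PTS2, 7 were called higher in PTS2 and 0 in PTS1, beside 5.1% and 4.46% of all genes. Of 19 tested further mitochondrial genes, 2 were called higher in the proximal tubule and 6 in the thick limb and DCT, beside the same 4.84% and 11.6%. Acss1, which activates acetate in mitochondria, was at 642 TPM in PTS1, 1.27 TPM in PTS2 and 567 TPM in the thick limb and DCT. Acacb, whose product malonyl-CoA inhibits carnitine palmitoyltransferase 1, was at 0.110 TPM in the proximal tubule and 23.0 TPM in the thick limb and DCT (limma log2 difference -4.43, adjusted p 2.05e-31). Of 6 genes of ketone synthesis and transport, 4 were called higher in the proximal tubule and 1 in the thick limb and DCT, beside 4.84% and 11.6%. Slc16a7, a monocarboxylate transporter, was at 0.218 TPM in the proximal tubule and 554 TPM in the thick limb and DCT.

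Of the 10 regulators, 4 were called higher in the proximal tubule and 2 in the thick limb and DCT, beside 4.84% and 11.6% of all genes. Ppargc1a, a coactivator of mitochondrial genes, was at 21.6 TPM in the proximal tubule and 199 TPM in the thick limb and DCT (limma log2 difference -3.98, adjusted p 1.06e-30), and Hnf4a, a proximal nuclear receptor, at 111 and 0.315 TPM (6.46, 9.79e-33). Over the 15 group means of log2(TPM + 1), which share libraries and overall composition, Pearson's r with Hnf4a was 0.972 for Acsm5, 0.937 for Acsm2, 0.923 for Acaa1b, 0.916 for Acsm1 and 0.905 for Acox2. With Ppara, a nuclear receptor that drives fatty acid oxidation genes in liver, the members with the highest r were Acaa1b (0.834), Acsm1 (0.802) and Acsm2 (0.785). With Ppargc1a the highest r were 0.869 for Acsl1, 0.857 for Hadhb, 0.845 for Hadha and 0.783 for both Acaa2 and Acsl3. These correlations describe the groups and were not tested.

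Some members share exons with other genes, and no strand-aware counting is stated. In GENCODE M21, 78.6% of the 50-base stretches of Cpt1b also occur in the readthrough gene Gm44502, whose level was at most 2.12 TPM in any group mean, against 290 TPM for Cpt1b in CTAL. Stretches shared with genes on the opposite strand made up 34% for Acsm3 (Eri2, 2.845 to 15.8 TPM over the group means) and 26.9% for Acadvl (Dvl2, 3.72 to 20.5 TPM). Hadhb shares 18.1% with a processed pseudogene, Gm13910, at 3.20 to 26.5 TPM. Of the other ACSM genes, Acsm2 shared 0.576% of its stretches with other genes, Acsm5 1.58% and Acsm1 0%.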

How the data were processed

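RNA from dissected tubule pieces and glomeruli was extracted with Direct-zol, amplified with SMARTer V4 Ultra Low and made into libraries with Nextera XT, per the labels' protocols. The deposited values are TPM per gene, made by the authors and summing to 999998.6 to 1000190.3 in each sample. The submitters' processing notes name STAR 2.5.4a and RSEM 1.3.0, and Cell Ranger 3.0.2 and Seurat; the genome build and annotation are not given in the sources used here. TPM keep no depth, so no interval from counts was possible. The 14 columns of the authors' means were not used, and 3 single-cell samples were not analysed here. In 1 PTS2 column the piece letter matches no sample title, so it was assigned by segment only and taken as a mouse of its own; its name shares its mouse number with no other PTS2 column.

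Pieces of 1 mouse number and segment were averaged as log2(TPM + 1), and numbers were not matched across segments. Genes at 1 TPM or more in at least 3 mice (33793) entered 1 limma fit of 15 groups (R 4.3.3, limma 3.58.1, with a trend on the mean), tested on simulated data with known changes. Levels, ratios and figures were made with Python 3.11.15, pandas 2.3.3 and matplotlib 3.10.9. Members, lists and tests were chosen with earlier results of these data known. For each comparison, full statistics were given for the 3 called members with the largest difference in each direction and for the most abundant member of each role. Alternatives were pseudocounts of 0.1 and 5, a filter of 5 TPM or none, median ratio rescaling over 8216 genes, quantile normalization, averaging before the log, pieces as samples, array weights, a replicate block, single mice left out and, for the thin limbs and glomeruli, other groups.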

Additional observations from a re-analysis of the deposited data

Results flagged for a closer look

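In groups of 4 or 5 mice, 10 of 156 tested combinations of member and group held a mouse far from the others by Dixon's test, where chance gives about 1 in 20. Of these, 5 concerned ATL mouse 4. It had 45.18 TPM of Slc25a20 against 99.5 to 105 in the other ATL mice, 44.34 TPM of Hadha against 74.2 to 78.3, and 41.32 TPM of Cat against 88.2 to 103. It was high in Acsl4, at 11.69 TPM against 6.24 to 6.67, and in Acsm3, at 24.47 TPM against 0 to 0.72. The same mouse had 325 TPM of thick limb markers against 676 to 783, 11498 TPM of thin limb markers against 17237 to 21865, and 34.4 TPM of stroma and muscle markers against 0.89 to 8.35. The part of these in the values was not tested.

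In CCD, mouse 1 was low in Cpt2, at 68.49 TPM against 79.4 to 81.6, and in Acox2, at 0.43 TPM against 1.08 to 1.43. CCD mouse 4 was high in Slc25a20, at 118.1 TPM against 78.9 to 86.5, and in Acaa2, at 543.37 TPM against 414 to 441. In OMCD, mouse 2 was low in Cpt1c, at 14.72 TPM against 19.5 to 19.8.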

How the results depend on the processing

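No direction of a called member reversed under any alternative, and every call in the comparison of the proximal tubule with the thick limb and DCT stayed, 19 of 19. For that comparison no alternative left out a whole segment. Calls that stayed under all alternatives numbered 13 of 17 for the thick limb and DCT against CNT and collecting duct, 11 of 17 for PTS1 against PTS2, 4 of 10 for PTS2 against PTS3, 3 of 5 for MTAL against CTAL, 5 of 6 for CTAL against DCT, 8 of 12 for OMCD against IMCD, 15 of 18 for the thick against the thin limbs and 16 of 17 for glomeruli. Quantile normalization gave 11 calls in place of 17 between PTS1 and PTS2 and 5 in place of 10 between PTS2 and PTS3; a pseudocount of 0.1 left 1 member in place of 2 above each other group (Acox3, without Acaa1b). The causes were not tested. With single mice left out, the counts ranged, in the order above, over 19 to 19, 15 to 18, 17 to 19, 8 to 12, 5 to 5, 6 to 8, 11 to 17, 17 to 18 and 16 to 18. Quantile normalization moved the median difference of all genes from 0.69 to 0.03 for glomeruli, from -0.71 to -0.12 for the thick against the thin limbs and from 0.32 to 0.02 for OMCD against IMCD.

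No pairing by mouse number was seen across segments: deviations of same-numbered mice had a median correlation of 0.000185 over 290 pairs, against 0.000366 over 1016 pairs of other numbers. Whether same-numbered samples came from 1 animal cannot be told from these correlations, since a small effect of the mouse could go unseen. With the number as a replicate block, on 52 mice, the counts in the same order were 19, 16, 18, 10, 5, 7, 11, 18 and 17. Called members that this block left short were Acaa2 for the thick limb and DCT against CNT and collecting duct (0.99), Acsm5 for PTS1 against PTS2 (-0.86) and Acaa1b for OMCD against IMCD (0.96). Without a depth for each value, the precision of low levels is unknown.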
